A study of Danio rerio with 12 samples.

Results

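Cardiac ion channels and calcium handling genes were followed in ventricles of mvp mutant and wild-type zebrafish after resection of the ventricular apex or sham surgery. Members were the genes whose symbol, in a table of zebrafish gene names, starts with kcn, cacn, ryr, atp2a, atp2b, slc8a, casq or pln. Symbols that start with scn, hcn or itpr followed by a digit were also taken. Each member had at least 10 counts in at least 3 libraries. Of 32520 genes listed, 230 matched and 84 of them were kept. The other 146 were under the minimum, 24 of them with 0 counts in every library. The study compared 4 groups of 3 libraries: mvp mutant at 7 days post amputation (mvp 7dpa), mvp mutant after sham surgery (mvp sham), wild type at 7 days post amputation (WT 7dpa) and wild type after sham surgery (WT sham). The mutants were homozygous (mvp-/-) for a single CRISPR allele, a deletion of the mvp coding region from founders crossed with AB fish. All fish were adult. The tissue was the ventricle below the plane of surgery. The number of hearts behind each library is not given in the sources used here, so p-values measure the spread between these libraries, which may in part be technical.

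A heartbeat begins with depolarisation of the membrane by sodium channels. L-type calcium channels then open and trigger a larger release of calcium from the sarcoplasmic reticulum through ryanodine receptors. The muscle relaxes as the SERCA pump, held in check by phospholamban, returns calcium to that store, where calsequestrin buffers it, and as the sodium-calcium exchanger carries the rest out of the cell. Potassium channels repolarise the membrane, inward rectifiers hold it at rest, and HCN channels carry the pacemaker current. Roles given below for single genes come from work on mammals unless zebrafish is named, and the symbols, some in human-style capitals, are those of the gene name table.

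Levels are in CPM, read counts scaled to a common library size with TMM factors, and they are compared between samples for 1 gene at a time, since no transcript lengths were used. A gene "rose", "fell" or was "called" where the quasi-likelihood test of edgeR gave it an adjusted p under 0.05, the Benjamini-Hochberg adjustment being made over all 16604 genes tested. Library totals lay between 21356163 and 26684651 counts, so that 3 counts, taken as the floor, stood for 0.112 to 0.14 CPM. Floors and counting intervals cover counting error only. The targeted gene, listed as MVP, was at 16.6 to 19.4 CPM in mvp 7dpa libraries and 4.67 to 5.41 CPM in mvp sham libraries, against 136 to 189 CPM in WT 7dpa libraries and 180 to 193 CPM in WT sham libraries, so it was low but not at 0 in the mutants. The WT 7dpa libraries varied most among themselves, with a biological coefficient of variation of 26.6% across genes, against 4.77% to 7.86% in the other 3 groups. In WT 7dpa replicate 1, 15 members (18.3%, beside 12.5% of all genes) lay more than 1 log2 unit from the mean of the other replicates, whereas 1 to 4 members did so in any other library. The 15 included kcnj14, kcnq1.1, kcnj12a and atp2b2. The test estimates the spread over all 12 libraries, so p-values and SEs of the mvp comparisons also carry the spread of WT 7dpa. Each SE is the absolute log2 fold change divided by the square root of the F statistic. Without WT 7dpa replicate 1, 36 members in place of 30 were called between mvp 7dpa and mvp sham.

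Lists of cell type markers moved with the groups. The summed level of the 7 cardiomyocyte markers found in the table, among them MYL7 and MYH7, was 54980 to 57220 CPM in mvp 7dpa and 76680 to 80480 CPM in mvp sham libraries, and 47710 to 60370 CPM in WT 7dpa and 76780 to 86860 CPM in WT sham libraries. The 12 macrophage markers summed to 582.5 to 621.8 CPM in mvp 7dpa and 351.1 to 385.8 CPM in mvp sham libraries, and to 603.1 to 964.9 CPM in WT 7dpa and 168.6 to 180.7 CPM in WT sham libraries. The 6 epicardial and fibroblast markers summed to 1258 to 1289 CPM in mvp 7dpa and 480.5 to 498 CPM in mvp sham libraries, and to 1031 to 1835 CPM in WT 7dpa and 244.1 to 277.2 CPM in WT sham libraries. The 5 atrial markers summed to 4639 to 4802 CPM in mvp 7dpa and 3265 to 3586 CPM in mvp sham libraries, and to 4778 to 8373 CPM in WT 7dpa and 1729 to 1779 CPM in WT sham libraries. No marker in these lists was at 0 in every library. WT sham hearts thus had the lowest summed levels of macrophage, epicardial and atrial markers, and both 7dpa groups had lower cardiomyocyte sums than both sham groups. A sum is weighted to its most counted genes, and single markers did not all go that way. In mvp sham against WT sham hearts, 6 of 8 macrophage markers tested were called higher and 1 lower. The calls were 4 higher and 2 lower of 6 epicardial and fibroblast markers, and 2 higher and 1 lower of 4 atrial ones. Among all genes 25.3% were higher and 24.2% lower. The part of these shifts in the results that follow was not tested. In such bulk tissue, fewer cells of a type and less RNA per cell cannot be told apart.

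Of the 84 members, 82 passed the filter of the test. At 7dpa in mvp hearts, 6 of these were higher and 24 lower than in mvp sham hearts, 36.6% of those tested, where 26.3% of all genes were called (12.9% higher, 13.4% lower). At 7dpa in WT hearts, 25 were higher and 26 lower than in WT sham hearts, 62.2%, where 59.4% of all genes were called (31.6% higher, 27.8% lower). The share called in WT hearts was thus near the background, while lower calls in mvp hearts were 24 of 82 members against 13.4% of all genes. The libraries of 44 members did not overlap between mvp 7dpa and mvp sham (51.3% of all genes did not), and those of 50 did not overlap between WT 7dpa and WT sham (60.3% of all genes). The median log2 fold change of the members was -0.15 in mvp and 0.11 in WT hearts, beside 0.02 and 0.01 over all genes. The WT median turned to -0.002 without WT 7dpa replicate 1 and to -0.284 with at least 10 counts in every library, and the mvp median was -0.071 without mvp 7dpa replicate 3 and -0.345 with that filter.

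The most counted members mostly fell at 7dpa. Among the 24 members with a mean of at least 10 CPM over all libraries, 16 fell and 2 rose at 7dpa in mvp hearts, and 16 fell and 6 rose in WT hearts. Among the 6544 genes of all kinds at that level, 24.1% fell and 12.01% rose in mvp hearts, and 35.2% fell and 30.8% rose in WT hearts. Of the 58 members under 10 CPM, 8 fell and 4 rose in mvp hearts, and 10 fell and 19 rose in WT hearts. Among the 10060 genes of all kinds under that level, 6.39% fell and 13.6% rose in mvp hearts, and 23.0% fell and 32.1% rose in WT hearts, so the 19 WT rises were near the background. Sparsely counted members also include those that passed the filter through the group where they were high, so their counts carry less weight. The 82 tested are not all members: KCNK3 (ENSDARG00000052898) and CACNA1B (ENSDARG00000021735) had too few counts. CACNA1B, the N-type channel pore of neurons, had 7, 3 and 10 counts in mvp 7dpa and 0 in each mvp sham library, and 14, 10 and 6 counts in WT 7dpa and 0 in each WT sham library.

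The SERCA pump and its inhibitor were the most counted members. atp2a2a, a zebrafish gene for the cardiac SERCA2 pump, had 8073, 8186 and 8155 CPM in mvp 7dpa and 13220, 12750 and 13190 CPM in mvp sham libraries. In WT hearts it had 11610, 7418 and 7425 CPM at 7dpa against 20340, 19180 and 21240 CPM after sham surgery. All 7dpa libraries lay below all sham libraries of either genotype, and the WT sham libraries lay above all others. The log2 fold change at 7dpa was -0.68 ± 0.14 (SE) in mvp hearts (adjusted p = 0.00282) and -1.20 ± 0.14 in WT hearts (adjusted p = 9.33e-06), and mvp sham hearts were lower than WT sham hearts by -0.63 ± 0.14 (adjusted p = 0.00189). The responses differed by 0.52 ± 0.19 (adjusted p = 0.0538, edgeR), and by 0.75 without WT 7dpa replicate 1 (adjusted p = 1.13e-10). This single gene took 0.893% ± 0.00502 of all counts in mvp 7dpa and 1.18% ± 0.03 in mvp sham libraries, and 1.0% ± 0.224 in WT 7dpa and 1.77% ± 0.135 in WT sham libraries (SD, n = 3 each).

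Phospholamban is encoded by a pair of genes here, and they behaved differently. pln1, the more counted one, had 4046, 4050 and 3902 CPM in mvp 7dpa against 5698, 5861 and 5638 CPM in mvp sham libraries, a log2 fold change of -0.52 ± 0.10 (adjusted p = 0.00226, edgeR). In WT hearts pln1 had 4917, 3617 and 3750 CPM at 7dpa against 5007, 5291 and 4668 CPM after sham surgery, groups that overlapped. The WT change of -0.28 ± 0.10 (adjusted p = 0.0271) was lost on leaving out WT sham replicate 1 or 2 or WT 7dpa replicate 2 or 3 (adjusted p = 0.0637 to 0.0957). pln2 had 11.4, 9.37 and 10.3 CPM in mvp 7dpa and 26.2, 25.4 and 27.5 CPM in mvp sham libraries. In WT hearts pln2 had 27.9, 28.6 and 26.6 CPM at 7dpa and 73.3, 77.8 and 69.6 CPM after sham surgery. No library of the mvp 7dpa or the WT sham group overlapped another group, and the mvp sham and WT 7dpa libraries overlapped.

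pln2 was lower by similar amounts in each of 4 contrasts. Its log2 fold change was -1.35 ± 0.08 at 7dpa in mvp hearts and -1.41 ± 0.08 in WT hearts, and the mvp to WT difference was -1.48 ± 0.08 after sham surgery and -1.42 ± 0.08 at 7dpa (edgeR adjusted p = 3.64e-07, 1.37e-08, 7.92e-09 and 2.36e-07). The responses of the genotypes differed by 0.06 ± 0.12 (adjusted p = 0.709). Among the 82 members, 6 (7.32%, beside 4.26% of all genes) were called in all 4 contrasts between groups, and pln2 was the only one that was lower in all of them.

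**Figure D1:**
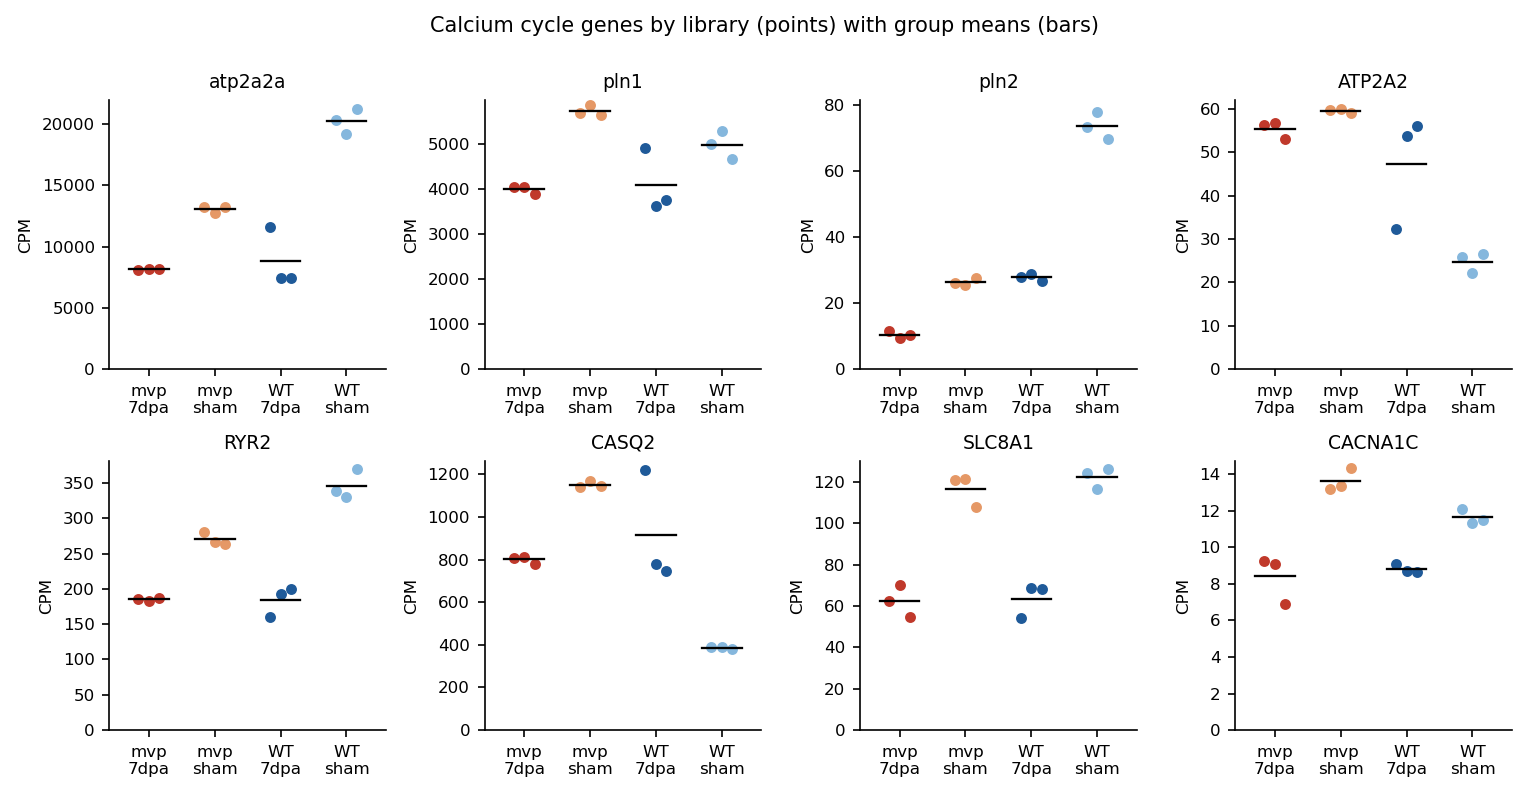
Levels of 8 calcium cycle genes in CPM (vertical axes, from 0) in the 12 libraries, grouped as mvp 7dpa, mvp sham, WT 7dpa and WT sham; points are libraries and bars are group means of 3. atp2a2a, pln2 and RYR2 were highest in WT sham hearts, CASQ2 and ATP2A2 were lowest there, and SLC8A1 separated 7dpa from sham in both genotypes.

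Because the pump and its inhibitor fell unequally, their ratio of counts within a library was compared between groups; these ratios were chosen after the values had been seen. There were 49.2 ± 1.18 pln1 counts per 100 atp2a2a counts in mvp 7dpa and 43.9 ± 1.76 in mvp sham libraries, and 47.2 ± 4.29 in WT 7dpa and 24.7 ± 2.81 in WT sham libraries (SD, n = 3 each). The 3 libraries of WT sham lay below the other 9. An exact two-sided permutation test gave p = 0.1, the smallest that 3 libraries against 3 allow, for 7dpa against sham in each genotype and for mvp sham against WT sham, and p = 0.7 for mvp 7dpa against WT 7dpa. Counts of pln2 per 100 pln1 counts were 0.259 ± 0.0255 in mvp 7dpa and 0.460 ± 0.0273 in mvp sham libraries, and 0.69 ± 0.113 in WT 7dpa and 1.48 ± 0.0146 in WT sham libraries, with no overlap between any groups.

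A second SERCA2 gene had the opposite direction to atp2a2a in WT hearts. ATP2A2 (ENSDARG00000005122) had 56.4, 56.9 and 53.2 CPM in mvp 7dpa and 59.7, 60.1 and 59.2 CPM in mvp sham libraries, a difference of -0.10 ± 0.16 on the log2 scale (adjusted p = 0.662, edgeR). In WT hearts it had 32.3, 53.7 and 56.2 CPM at 7dpa and 25.9, 22.1 and 26.5 CPM after sham surgery, and it rose by 0.94 ± 0.16 (adjusted p = 0.000238). It was higher in mvp sham than in WT sham hearts by 1.27 ± 0.16 (adjusted p = 2.68e-05), and its responses differed by -1.04 ± 0.22 (adjusted p = 0.00308). Per 1000 atp2a2a counts there were 6.82 ± 0.26 ATP2A2 counts in mvp 7dpa and 4.57 ± 0.123 in mvp sham libraries, and 5.86 ± 2.67 in WT 7dpa and 1.22 ± 0.0648 in WT sham libraries (SD, n = 3 each). How far reads of the 2 genes could be told apart in counting is not known. The pump genes ATP2A3 and atp2a1 were at 6.12 and 2.0 CPM on average in mvp 7dpa hearts. ATP2A3, the SERCA3 of blood and vessel cells, rose by 0.81 ± 0.14 in WT hearts at 7dpa (adjusted p = 0.000283), and by 0.56 ± 0.14 in mvp hearts (adjusted p = 0.0109), a call that was lost without mvp sham replicate 3 or mvp 7dpa replicate 3 (adjusted p = 0.0552 and 0.0544).

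**Figure D2:**
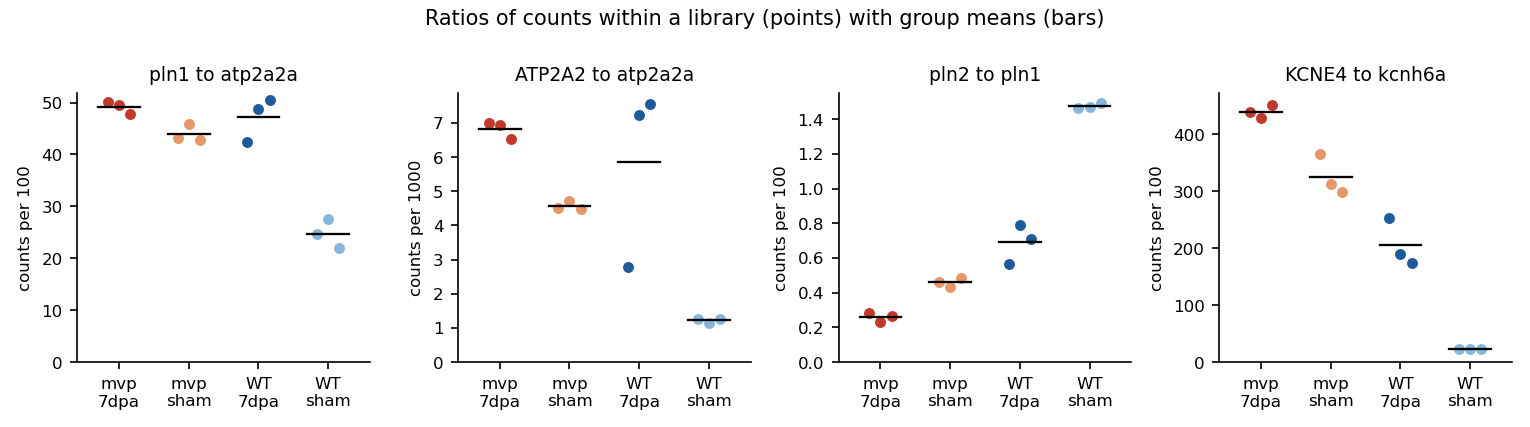
Ratios of the counts of 2 genes within each library (vertical axes, from 0, counts per 100 or per 1000 counts of the second gene) for the 4 groups; points are libraries and bars are group means of 3. WT sham libraries had the lowest ratios of pln1 to atp2a2a, ATP2A2 to atp2a2a and KCNE4 to kcnh6a, and the highest ratio of pln2 to pln1.

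Plasma membrane calcium pumps carry calcium out of the cell. ATP2B1, the widely expressed one, had 44.2, 45.8 and 43.8 CPM in mvp 7dpa and 41.2, 42.1 and 44.2 CPM in mvp sham libraries, which overlapped. It had 29.3, 36.5 and 31.3 CPM in WT 7dpa and 20.3, 19.2 and 17.97 CPM in WT sham libraries, a rise of 0.76 ± 0.09 (adjusted p = 7.82e-06, edgeR). mvp hearts were higher than WT hearts by 1.15 ± 0.09 after sham surgery and by 0.46 ± 0.08 at 7dpa (adjusted p = 2.1e-07 and 0.00214), and the responses differed by -0.69 ± 0.12 (adjusted p = 0.000775). atp2b4 rose by 0.35 ± 0.07 in WT hearts at 7dpa (adjusted p = 0.00046), to 45.9 ± 1.5 CPM against 35.9 ± 2.38 CPM after sham surgery (SD, n = 3 each). atp2b2, a pump best known from hair cells and neurons, averaged 0.691 CPM in WT 7dpa and 2.84 CPM in WT sham hearts and fell by -2.01 ± 0.43 (adjusted p = 0.00138). It fell by -2.97 without WT 7dpa replicate 1, which had 1.4 CPM where the other replicates had 0.2 and 0.478 CPM. A second ATP2B1-like gene, atp2b1b, differed between the genotypes after sham surgery by -0.78 ± 0.30 (adjusted p = 0.045), a call lost in 9 of 12 fits with a library left out (adjusted p = 0.0585 to 0.174).

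Of the 10 tested members that release or store calcium in the sarcoplasmic reticulum, 5 fell and none rose at 7dpa in mvp hearts, and 4 fell and 3 rose in WT hearts. Among all genes 13.4% fell and 12.9% rose in mvp hearts, and 27.8% fell and 31.6% rose in WT hearts, which is the background for the counts of each family that follows. RYR2, the cardiac ryanodine receptor, had 185, 182 and 188 CPM in mvp 7dpa and 281, 267 and 264 CPM in mvp sham libraries. In WT hearts it had 160, 193 and 200 CPM at 7dpa and 339, 330 and 370 CPM after sham surgery. Its levels at 7dpa overlapped between the genotypes (log2 difference 0.01 ± 0.08, adjusted p = 0.965, edgeR), while the sham levels differed by -0.36 ± 0.08 (adjusted p = 0.0027). It fell by -0.55 ± 0.08 in mvp and -0.91 ± 0.08 in WT hearts (adjusted p = 0.000349 and 9.84e-07). The difference of those responses, 0.36 ± 0.12 (adjusted p = 0.0269), was lost without WT sham replicate 3, mvp sham replicate 2 or 3, or any mvp 7dpa replicate (adjusted p = 0.0593 to 0.0692).

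Of the other ryanodine receptors, RYR3 and 1 RYR1 gene were highest in WT sham hearts. RYR3 averaged 21.1 ± 1.52 CPM in mvp 7dpa and 29.1 ± 1.45 CPM in mvp sham hearts, and 16.5 ± 1.94 CPM in WT 7dpa and 62.2 ± 6.57 CPM in WT sham hearts (SD, n = 3 each). It fell by -0.46 ± 0.10 in mvp and -1.91 ± 0.10 in WT hearts (adjusted p = 0.00534 and 1.07e-08), and the responses differed by 1.45 ± 0.15 (adjusted p = 8.28e-06, edgeR). Its higher level in mvp than in WT hearts at 7dpa lost its call without mvp 7dpa replicate 1 or 2 (adjusted p = 0.139 and 0.116). RYR1 (ENSDARG00000023797), the release channel of skeletal muscle in mammals, averaged 16.3 ± 1.9 CPM in mvp 7dpa and 23.0 ± 1.73 CPM in mvp sham hearts, and 17.3 ± 0.534 CPM in WT 7dpa and 42.1 ± 2.3 CPM in WT sham hearts. It fell in both genotypes, by -0.49 ± 0.09 in mvp and -1.28 ± 0.09 in WT hearts (adjusted p = 0.0019 and 1.31e-07), and mvp sham hearts were below WT sham hearts by -0.87 ± 0.09 (adjusted p = 5.24e-06). The summed level of 3 skeletal muscle markers was 5947 to 6609 CPM over the 12 libraries, and the groups overlapped. Nearly all of that sum was ckma, at 6131 to 6343 CPM on average. The other markers, actn3b and myhz2, averaged 1.17 CPM or less in each group, and myhz2 rose in WT hearts by 3.28 ± 0.56 (adjusted p = 0.000242), with responses that differed by -2.38 ± 0.83 (adjusted p = 0.0398). A second RYR1 gene (ENSDARG00000011422), at 0.166 to 0.497 CPM on average, was called in no comparison.

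CASQ2, the calsequestrin of the heart, responded in opposite directions in the 2 genotypes. It had 808, 812 and 782 CPM in mvp 7dpa and 1140, 1171 and 1146 CPM in mvp sham libraries. In WT hearts it had 1219, 779 and 746 CPM at 7dpa and 390, 391.7 and 379 CPM after sham surgery. The 3 WT sham libraries were the lowest of the 12, and mvp 7dpa lay below mvp sham with no overlap. CASQ2 fell by -0.53 ± 0.14 in mvp hearts (adjusted p = 0.0141) and rose by 1.24 ± 0.14 in WT hearts (adjusted p = 8.24e-06), a difference of responses of -1.77 ± 0.20 (adjusted p = 2.32e-05, edgeR). In sham hearts it was 1.57 ± 0.14 higher in mvp than in WT (adjusted p = 1.31e-06), and at 7dpa the genotypes differed by -0.19 ± 0.14 (adjusted p = 0.361). There were 433 ± 15.0 CASQ2 counts per 100 RYR2 counts in mvp 7dpa and 426 ± 18.3 in mvp sham libraries, and 513 ± 216 in WT 7dpa and 112 ± 8.56 in WT sham libraries (SD, n = 3 each). CASQ1 (ENSDARG00000018105), a copy of the skeletal muscle form, fell by -0.44 ± 0.11 in WT hearts at 7dpa (adjusted p = 0.00284), and its change in mvp hearts of -0.20 ± 0.11 did not pass (adjusted p = 0.18). Without WT 7dpa replicate 1 it did (-0.21, adjusted p = 0.00255).

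The IP3 receptors release calcium from internal stores on hormonal signals and are known from endothelium, smooth muscle and blood cells as well as cardiomyocytes. ITPR2 had 15.7, 17.8 and 10.4 CPM in mvp 7dpa and 17.9, 18.4 and 17.2 CPM in mvp sham libraries, against 7.93, 13.1 and 14.9 CPM in WT 7dpa and 6.88, 5.89 and 6.69 CPM in WT sham libraries. It rose by 0.89 ± 0.22 in WT hearts (adjusted p = 0.0041) and was 1.46 ± 0.23 higher in mvp sham than in WT sham hearts (adjusted p = 0.000141, edgeR). ITPR1 (ENSDARG00000014655) gave a similar pattern, with a rise of 1.22 ± 0.24 in WT hearts and a sham difference of 1.36 ± 0.25 (adjusted p = 0.000752 and 0.000479). Neither changed in mvp hearts past the threshold, with -0.28 ± 0.21 for ITPR2 and -0.33 ± 0.22 for this ITPR1 (adjusted p = 0.363 and 0.308). The second ITPR1 gene (ENSDARG00000074149) fell by -0.46 ± 0.13 in mvp hearts (adjusted p = 0.0173), to 6.08 CPM at 7dpa against 8.34 CPM after sham surgery on average, a call lost without mvp sham replicate 2 or mvp 7dpa replicate 2 or 3 (adjusted p = 0.0549 to 0.0645). Its WT difference was 0.12 ± 0.13 (adjusted p = 0.413). The 6 endothelial and endocardial markers summed to 355.6 to 380.6 CPM in mvp 7dpa and 409.2 to 438.3 CPM in mvp sham libraries, and 343.4 to 353.7 CPM in WT 7dpa and 485 to 518.3 CPM in WT sham libraries. Of these 6, 2 were called higher and 3 lower in mvp sham than in WT sham hearts (25.3% and 24.2% of all genes). At 7dpa 1 rose and 2 fell in mvp hearts, and 0 rose and 3 fell in WT hearts. The part of these markers in the ITPR levels was not tested. ITPR3, at 0.726 to 1.06 CPM on average, was called in none of the 4 contrasts between groups (adjusted p = 0.141 to 0.488 in edgeR).

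The cardiac sodium-calcium exchanger fell by similar amounts in both genotypes. SLC8A1 (ENSDARG00000013422) had 62.3, 70.2 and 54.7 CPM in mvp 7dpa and 120.7, 121.2 and 107.8 CPM in mvp sham libraries. In WT hearts it had 54.0, 68.5 and 68.1 CPM at 7dpa and 124, 117 and 126 CPM after sham surgery. The 6 libraries at 7dpa lay below the 6 sham libraries, and within each surgery the genotypes overlapped. The fall was -0.90 ± 0.11 in mvp and -0.94 ± 0.11 in WT hearts (adjusted p = 5.43e-05 and 6.82e-06), and the difference between the responses was 0.04 ± 0.15 (adjusted p = 0.845, edgeR). Of the 4 other exchanger genes tested, SLC8A3, known from brain and skeletal muscle, was 1.68 ± 0.39 higher in mvp sham than in WT sham hearts (adjusted p = 0.00309), at 1.68 CPM in mvp sham against 0.511 CPM in WT sham hearts on average. The others were under 1 CPM on average, and of them slc8a2a alone had a call, in the sham comparison (0.76 ± 0.29, adjusted p = 0.0421), which was lost in 10 of 12 fits with a library left out.

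Calcium enters cardiomyocytes through the L-type and T-type channels. CACNA1C, the L-type pore, had 9.26, 9.12 and 6.91 CPM in mvp 7dpa and 13.2, 13.4 and 14.3 CPM in mvp sham libraries. In WT hearts CACNA1C had 9.08, 8.72 and 8.66 CPM at 7dpa and 12.1, 11.3 and 11.5 CPM after sham surgery. It fell without overlap in both, by -0.69 ± 0.11 in mvp and -0.40 ± 0.11 in WT hearts (adjusted p = 0.000622 and 0.00744), and the responses differed by -0.29 ± 0.16 (adjusted p = 0.17, edgeR). CACNA1G, a T-type pore, fell by -0.61 ± 0.18 in WT hearts (adjusted p = 0.00957). Its fall of -0.58 ± 0.18 in mvp hearts (adjusted p = 0.0284) was lost without mvp sham replicate 1 or 2 or mvp 7dpa replicate 2 or 3 (adjusted p = 0.0759 to 0.108).

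The remaining pore genes had low counts. CACNA1A, the P/Q-type pore of nerve endings, had 24, 24 and 22 counts in mvp 7dpa and 3, 3 and 4 counts in mvp sham libraries, and rose by 2.48 ± 0.36 (adjusted p = 0.000273, edgeR). In WT hearts CACNA1A had 21, 22 and 36 counts at 7dpa and 5, 11 and 10 counts after sham surgery, a rise of 1.11 ± 0.30 (adjusted p = 0.0066). A second P/Q-type gene, cacna1aa, did not follow it: it averaged 0.508 CPM in mvp 7dpa and 1.04 CPM in mvp sham hearts, and 1.36 CPM in WT 7dpa and 0.399 CPM in WT sham hearts. The WT rise of cacna1aa was 1.77 ± 0.33 (adjusted p = 0.000516). Its fall in mvp hearts, -1.03 ± 0.33 (adjusted p = 0.0326), was lost without mvp sham replicate 2 or 3 or mvp 7dpa replicate 2 or 3 (adjusted p = 0.0779 to 0.115). The difference of responses was -2.80 ± 0.47 (adjusted p = 0.000571), and it kept its call whichever library was left out. CACNA1S (ENSDARG00000029457), the L-type pore of skeletal muscle, rose by 2.17 ± 0.36 in WT hearts (adjusted p = 0.000175), to 2.18 ± 0.86 CPM at 7dpa against 0.48 ± 0.164 CPM after sham surgery (SD, n = 3 each). The summed level of the 3 neuronal markers found was 1.77 to 2.04 CPM in mvp 7dpa and 1.16 to 1.87 CPM in mvp sham libraries, and 1.81 to 2.65 CPM in WT 7dpa and 0.875 to 2.04 CPM in WT sham libraries.

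Auxiliary subunits set the traffic and gating of the calcium channel pores. cacna2d1a averaged 21.9 ± 1.15 CPM in mvp 7dpa and 33.2 ± 1.71 CPM in mvp sham hearts, and 22.9 ± 1.6 CPM in WT 7dpa and 20.3 ± 1.18 CPM in WT sham hearts (SD, n = 3 each). It fell by -0.60 ± 0.08 in mvp hearts (adjusted p = 0.000173), differed by 0.17 ± 0.08 in WT hearts (adjusted p = 0.0861), and the responses differed by -0.77 ± 0.12 (adjusted p = 0.000244, edgeR). CACNB4, a beta subunit, had 3.3, 3.26 and 3.23 CPM in mvp 7dpa and 4.31, 4.95 and 4.26 CPM in mvp sham libraries, and 1.57, 1.8 and 1.85 CPM in WT 7dpa and 6.82, 6.37 and 7.0 CPM in WT sham libraries. The 4 groups of CACNB4 did not overlap, and its WT fall of -1.95 ± 0.13 exceeded the mvp fall of -0.47 ± 0.13 by 1.48 ± 0.19 (adjusted p = 5.39e-05). The mvp fall itself (adjusted p = 0.0176) was lost without mvp sham replicate 2 or mvp 7dpa replicate 1 or 3 (adjusted p = 0.0514 to 0.0789). CACNG8 (ENSDARG00000070626), a gamma subunit that partners AMPA receptors in the mammalian brain, had 9.34, 8.25 and 6.91 CPM in mvp 7dpa and 8.92, 7.32 and 7.26 CPM in mvp sham libraries. It had 3.74, 6.68 and 6.56 CPM in WT 7dpa and 0.859, 0.571 and 1.29 CPM in WT sham libraries, the lowest 3 of the 12. CACNG8 rose by 2.65 ± 0.29 in WT hearts and was 3.12 ± 0.29 higher in mvp sham than in WT sham hearts (adjusted p = 5.72e-06 and 1.63e-06). cacna2d2a, another alpha2-delta subunit, averaged 14.6 CPM in mvp 7dpa and 20.3 CPM in mvp sham hearts and fell by -0.48 ± 0.11 (adjusted p = 0.00541). Its WT fall of -0.26 ± 0.11 (adjusted p = 0.049) was lost in 10 of 12 fits with a library left out. CACNB1 and cacnb2a were called in no comparison, although without WT 7dpa replicate 1 CACNB1 was lower in mvp sham than in WT sham hearts by -0.38 (adjusted p = 0.0237).

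Of the 2 sodium channel pore genes tested, 1 fell in each genotype at 7dpa. SCN10A, the more counted of them, averaged 31.8 ± 0.845 CPM in mvp 7dpa and 43.5 ± 3.18 CPM in mvp sham hearts, and 29.9 ± 2.17 CPM in WT 7dpa and 47.1 ± 5.39 CPM in WT sham hearts (SD, n = 3 each). It fell by -0.45 ± 0.09 in mvp and -0.65 ± 0.09 in WT hearts (adjusted p = 0.00282 and 4.6e-05). The other, scn4ab, was lower in mvp than in WT hearts at 7dpa by -0.53 ± 0.15 (adjusted p = 0.0236), not past the threshold without mvp 7dpa replicate 1 or 2 (adjusted p = 0.0788 and 0.0567). That scn4ab was not called at 7dpa in mvp hearts depended on WT libraries. It fell there without WT 7dpa replicate 1 (-0.419, adjusted p = 0.00621, edgeR) or WT 7dpa replicate 3 (-0.418, adjusted p = 0.034). Of 5 beta subunit genes tested, 2 fell in mvp hearts, and 2 fell and 1 rose in WT hearts. The beta subunit SCN4B (ENSDARG00000099031) averaged 156 ± 5.82 CPM in mvp 7dpa and 200.3 ± 7.37 CPM in mvp sham hearts, and 160 ± 15.8 CPM in WT 7dpa and 259 ± 7.56 CPM in WT sham hearts. It fell by -0.36 ± 0.07 in mvp and -0.70 ± 0.07 in WT hearts (adjusted p = 0.0032 and 4.14e-06, edgeR). A second SCN4B gene (ENSDARG00000060319) averaged 0.924 CPM in mvp 7dpa and 0.883 CPM in mvp sham hearts. In WT hearts this gene averaged 0.256 CPM at 7dpa and 0.237 CPM after sham surgery. It was called higher in mvp than in WT hearts at 7dpa, a call lost without mvp 7dpa replicate 1 (adjusted p = 0.0561). SCN3B fell by -0.60 ± 0.13 in mvp and -1.70 ± 0.13 in WT hearts (adjusted p = 0.00357 and 2.16e-07). At 7dpa SCN3B was higher in mvp, with 11.1, 9.99 and 9.69 CPM in mvp libraries against 5.69, 6.72 and 6.08 CPM in WT libraries, a difference of 0.73 ± 0.13 (adjusted p = 0.002). After sham surgery it was lower in mvp than in WT hearts, by -0.36 ± 0.12 (adjusted p = 0.0278), a call lost without WT sham replicate 1 or 3 or mvp sham replicate 1 or 3 (adjusted p = 0.0596 to 0.139). SCN2B was the one that rose in WT hearts, by 1.14 ± 0.22 (adjusted p = 0.000636), to 2.07 CPM at 7dpa against 0.937 CPM after sham surgery on average, and it was 0.95 ± 0.23 higher in mvp sham than in WT sham hearts (adjusted p = 0.00357).

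Of the 4 pacemaker channel genes tested, hcn2b was the most counted. It had 51.1, 55.4 and 49.8 CPM in mvp 7dpa and 63.4, 60.9 and 62.9 CPM in mvp sham libraries. In WT hearts it had 62.0, 52.0 and 51.4 CPM at 7dpa and 118, 112 and 128 CPM after sham surgery. WT sham hearts stood apart from the other 3 groups, with a WT fall of -1.11 ± 0.08 and a sham difference, mvp minus WT, of -0.94 ± 0.08 (adjusted p = 1.66e-07 and 1.02e-06, edgeR). The smaller mvp fall of -0.26 ± 0.08 (adjusted p = 0.0348) was lost in 6 of 12 fits with a library left out, those without WT sham replicate 1, any mvp sham replicate, or mvp 7dpa replicate 1 or 3 (adjusted p = 0.0512 to 0.112). HCN4 (ENSDARG00000061685), the main pacemaker channel of the mammalian sinus node, fell by -1.17 ± 0.34 in WT hearts (adjusted p = 0.00956), and not past the threshold without WT sham replicate 3 (adjusted p = 0.0653), which had 2.47 CPM where the other WT sham libraries had 1.18 and 1.36 CPM.

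Of the 6 inward rectifiers tested, 1 fell and none rose at 7dpa in mvp hearts (13.4% of all genes fell), and 4 fell and none rose in WT hearts (27.8% of all genes fell). The WT call of kcnj12a (adjusted p = 0.0497) was lost in 9 of 12 fits with a library left out (adjusted p = 0.0589 to 0.167). The mvp counts depended on WT 7dpa replicate 1. Without it, kcnj14 fell in mvp hearts (-0.544, adjusted p = 7.31e-05) and kcnj12a rose there (0.55, adjusted p = 0.0251, edgeR). KCNJ2 (ENSDARG00000019418), a gene for the Kir2.1 channel of the resting potential, had 4, 9 and 3 counts in mvp 7dpa and 2, 2 and 6 counts in mvp sham libraries. It had 9, 10 and 7 counts in WT 7dpa and 35, 50 and 30 counts in WT sham libraries, the only group above 10 counts. The gene met the minimum for members through that group, a choice that favours lower values elsewhere. The WT fall was -2.59 ± 0.38 and the sham difference, mvp minus WT, -3.48 ± 0.44 (adjusted p = 6.63e-05 and 2.7e-05, edgeR). The sham difference was -4.13 without mvp sham replicate 3. kcnj12a, of the same Kir2 family, was lower by -1.62 ± 0.32 in mvp sham than in WT sham hearts (adjusted p = 0.000899). kcnj11, the Kir6.2 pore of the ATP-sensitive channel, had 2.09, 2.19 and 2.58 CPM in mvp 7dpa and 3.95, 3.89 and 4.9 CPM in mvp sham libraries, and 3.14, 2.32 and 2.04 CPM in WT 7dpa and 8.75, 6.94 and 11.3 CPM in WT sham libraries. It fell by -0.90 ± 0.22 in mvp and -1.85 ± 0.21 in WT hearts (adjusted p = 0.0085 and 7.17e-06). KCNJ8, the Kir6.1 pore that smooth muscle and pericytes use, had the opposite direction to kcnj11 between the sham groups and was 1.43 ± 0.34 higher in mvp sham than in WT sham hearts (adjusted p = 0.00348). Its WT difference at 7dpa was 0.82 ± 0.34 (adjusted p = 0.055), which passed the threshold without WT sham replicate 2 or WT 7dpa replicate 1 (adjusted p = 0.0398 and 0.00922). KCNJ8 averaged 1.66 CPM in mvp 7dpa and 1.37 CPM in mvp sham hearts. In WT hearts it averaged 0.894 CPM at 7dpa and 0.501 CPM after sham surgery. The summed level of 5 smooth muscle and pericyte markers was 430 to 450 CPM in mvp 7dpa and 298 to 309 CPM in mvp sham libraries. In WT libraries the sum was 383 to 698 CPM at 7dpa and 129 to 134 CPM after sham surgery. Its part in the KCNJ8 levels was not tested. kcnj14, the most counted of these 6 genes, had 98.3, 102.9 and 91.8 CPM in mvp 7dpa and 159, 141 and 127 CPM in mvp sham libraries, and 36.8, 98.9 and 94.0 CPM in WT 7dpa and 171, 135 and 207 CPM in WT sham libraries, a WT fall of -1.16 ± 0.27 (adjusted p = 0.00264).

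The two-pore family of background potassium channels included a gene counted almost solely in WT sham hearts. kcnk2b, a gene for the stretch-activated channel TREK-1, had 0 counts in each of the 6 mvp libraries, 2, 0 and 0 counts in WT 7dpa libraries, and 28, 21 and 20 counts in WT sham libraries. It met the minimum for members through WT sham alone, a choice that favours lower values elsewhere and so larger folds. Its level was at least 7.79-fold lower in mvp sham than in WT sham hearts, taking a floor of 3 counts per library. The ratio of WT 7dpa to WT sham rests on 2 counts, with WT sham 48.3 times WT 7dpa (95% counting interval 12.9 to 407). A count of 0 in an mvp library still allows up to 3 counts, so at this depth the gene was not detectable there. KCNK5 (ENSDARG00000023587), a pH-sensitive channel best known from kidney, rose by 2.97 ± 0.43 in WT hearts at 7dpa (adjusted p = 6.22e-05, edgeR), to 1.75, 3.4 and 4.3 CPM in WT 7dpa libraries against 0.483, 0.264 and 0.463 CPM in WT sham libraries. In mvp hearts it rose as well, averaging 1.46 CPM at 7dpa and 0.543 CPM after sham surgery. That call was lost without mvp sham replicate 2 or 3 or mvp 7dpa replicate 1 or 3 (adjusted p = 0.0756 to 0.111). A second KCNK5 gene (ENSDARG00000012390) rose in mvp hearts, averaging 0.729 CPM at 7dpa and 0.325 CPM after sham surgery. Its call was lost without mvp sham replicate 1 or 2 or mvp 7dpa replicate 2 or 3 (adjusted p = 0.0745 to 0.139). kcnk1a was 2.03 ± 0.49 higher in mvp sham than in WT sham hearts (adjusted p = 0.00377), at 1.09 CPM in mvp sham against 0.256 CPM in WT sham hearts on average.

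Of the 11 calcium- or sodium-activated potassium channel genes that matched, 2 were kept. Both are calcium-activated, and they differed in pattern. kcnn1a, a small-conductance channel, averaged 2.27 ± 0.155 CPM in mvp 7dpa and 3.62 ± 0.333 CPM in mvp sham hearts, and 2.57 ± 0.336 CPM in WT 7dpa and 6.57 ± 0.978 CPM in WT sham hearts (SD, n = 3 each). It fell by -0.67 ± 0.17 in mvp and -1.35 ± 0.16 in WT hearts (adjusted p = 0.00948 and 1.01e-05). kcnn4, the intermediate-conductance channel of blood and immune cells, was higher in mvp hearts. It had 1.82, 2.39 and 1.88 CPM in mvp 7dpa and 1.54, 2.48 and 2.68 CPM in mvp sham libraries, against 0.524, 0.36 and 0.605 CPM in WT 7dpa and 1.07, 0.966 and 0.772 CPM in WT sham libraries. All 6 mvp libraries lay above all 6 WT libraries, by 2.01 ± 0.28 at 7dpa and 1.25 ± 0.27 after sham surgery on the log2 scale (adjusted p = 0.000375 and 0.00188, edgeR). It also fell in WT hearts at 7dpa, by -0.90 ± 0.30 (adjusted p = 0.0224), a call lost without WT sham replicate 1 or 2 or WT 7dpa replicate 2 (adjusted p = 0.0549 to 0.0802). The 3 erythrocyte markers summed to 519.0 to 574.7 CPM in mvp 7dpa and 242.9 to 257.1 CPM in mvp sham libraries, and to 167.4 to 511.4 CPM in WT 7dpa and 147.8 to 196.2 CPM in WT sham libraries, higher in mvp than in WT without overlap within each surgery. The macrophage sums given above were likewise higher in mvp sham than in WT sham libraries and overlapped at 7dpa. Of the 8 macrophage markers tested, 0 were called higher and 5 lower in mvp 7dpa than in WT 7dpa hearts. Among all genes 8.94% were higher and 10.6% lower in that comparison. The part of erythrocyte or macrophage markers in the levels of kcnn4 was not tested.

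Among the 13 voltage-gated potassium channel pores tested, none fell and 6 rose in WT hearts at 7dpa, while 1 rose and 1 fell in mvp hearts. Among all genes 27.8% fell and 31.6% rose in WT hearts, and 13.4% fell and 12.9% rose in mvp hearts. That none fell in WT hearts depended on single libraries. There kcnq5a fell without WT 7dpa replicate 1 (-0.994, adjusted p = 0.000302, edgeR) or mvp 7dpa replicate 3 (-0.638, adjusted p = 0.0474). Without WT 7dpa replicate 2, kcnq1.1 (-0.925, adjusted p = 0.0389) and KCNH4 (ENSDARG00000062565, -1.687, adjusted p = 0.0321) fell in WT hearts. kcnh6a, the ERG channel that repolarises the zebrafish heart, was the one that rose in mvp hearts. It had 44.3, 43.5 and 41.9 CPM in mvp 7dpa and 29.4, 32.8 and 34.0 CPM in mvp sham libraries, a rise of 0.43 ± 0.10 (adjusted p = 0.00551, edgeR), against 34.0, 41.8 and 45.7 CPM in WT 7dpa and 36.6, 36.6 and 36.0 CPM in WT sham libraries. The WT difference was 0.15 ± 0.10 (adjusted p = 0.187) and passed the threshold without WT 7dpa replicate 1 (0.28, adjusted p = 0.00106), and the responses differed by 0.28 ± 0.14 (adjusted p = 0.134). kcnq1.1, whose mammalian counterpart carries the slow repolarising current, was at 3.32 to 5.12 CPM on average and was called in no contrast in the fit of all 12 libraries. kcnc4 averaged 1.88 ± 0.126 CPM in mvp 7dpa and 3.54 ± 0.54 CPM in mvp sham hearts, and 0.931 ± 0.274 CPM in WT 7dpa and 0.811 ± 0.135 CPM in WT sham hearts. It fell by -0.91 ± 0.22 at 7dpa in mvp hearts (adjusted p = 0.00726) and was higher in mvp than in WT by 2.12 ± 0.24 after sham surgery and 1.002 ± 0.23 at 7dpa (adjusted p = 1.03e-05 and 0.00965).

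The KCNG genes are silent subunits that alter Kv2 channels, and all 4 tested rose in WT hearts. KCNG3 had 25, 30 and 19 counts in mvp 7dpa and 26, 33 and 34 counts in mvp sham libraries, and 11, 23 and 22 counts in WT 7dpa and 1, 1 and 1 count in WT sham libraries. On the pooled counts, mvp sham was 30.9 times WT sham (95% counting interval 10.3 to 153) and WT 7dpa was 13.3 times WT sham (4.34 to 66.6). KCNG4 had 18, 13 and 23 counts in WT 7dpa and 0, 2 and 1 counts in WT sham libraries, 12.9 times as much (4.17 to 64.3). In mvp hearts KCNG4 had 8, 6 and 18 counts at 7dpa and 6, 4 and 1 counts after sham surgery. It met the minimum for members mainly through WT 7dpa, a choice that favours higher values there. KCNG2 had 12.5, 6.76 and 5.73 CPM in WT 7dpa and 2.63, 1.71 and 2.88 CPM in WT sham libraries, a rise of 1.80 ± 0.32 (adjusted p = 0.00034, edgeR), and at 7dpa it was lower in mvp than in WT hearts by -1.30 ± 0.31 (adjusted p = 0.0101). KCNG1 rose by 0.78 ± 0.22 in WT hearts (adjusted p = 0.00816), to 2.11 CPM at 7dpa against 1.23 CPM after sham surgery on average. The other 2 voltage-gated pores that rose in WT hearts, KCNA4 and KCNQ5, were each lost in 3 of 12 fits with a library left out (adjusted p = 0.0554 to 0.0695 and 0.0552 to 0.0763). kcnq5a was lower in mvp sham than in WT sham hearts by -1.02 ± 0.28 (adjusted p = 0.00801).

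Among the 24 members with a mean of at least 10 CPM, KCNE4 had the largest difference between the sham groups. It encodes a small membrane protein that dampens KCNQ1 and other potassium channels in mammalian cells. It had 194.9, 186.4 and 189.3 CPM in mvp 7dpa and 107.8, 102.5 and 101.7 CPM in mvp sham libraries. In WT hearts KCNE4 had 86.1, 79.1 and 79.2 CPM at 7dpa and 8.11, 8.26 and 8.13 CPM after sham surgery. No groups overlapped. It rose by 0.87 ± 0.06 in mvp and 3.32 ± 0.07 in WT hearts at 7dpa, and mvp exceeded WT by 3.67 ± 0.07 after sham surgery and 1.22 ± 0.06 at 7dpa (edgeR adjusted p = 7.47e-07, 1.77e-12, 5.97e-13 and 3.39e-08). The responses differed by -2.45 ± 0.09 (adjusted p = 8.89e-10). Counts of KCNE4 per 100 kcnh6a counts were 440 ± 12.01 in mvp 7dpa and 326 ± 35.5 in mvp sham libraries, and 205 ± 42.5 in WT 7dpa and 22.4 ± 0.248 in WT sham libraries (SD, n = 3 each). The macrophage and the epicardial and fibroblast sums were also lowest in WT sham libraries and higher at 7dpa than after sham surgery in both genotypes. Both sums were lower in mvp sham than in WT 7dpa libraries, whereas KCNE4 was higher in mvp sham. At 7dpa both sums overlapped between the genotypes, where KCNE4 was higher in mvp hearts. The part of these markers in the KCNE4 levels was not tested.

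**Figure D3:**
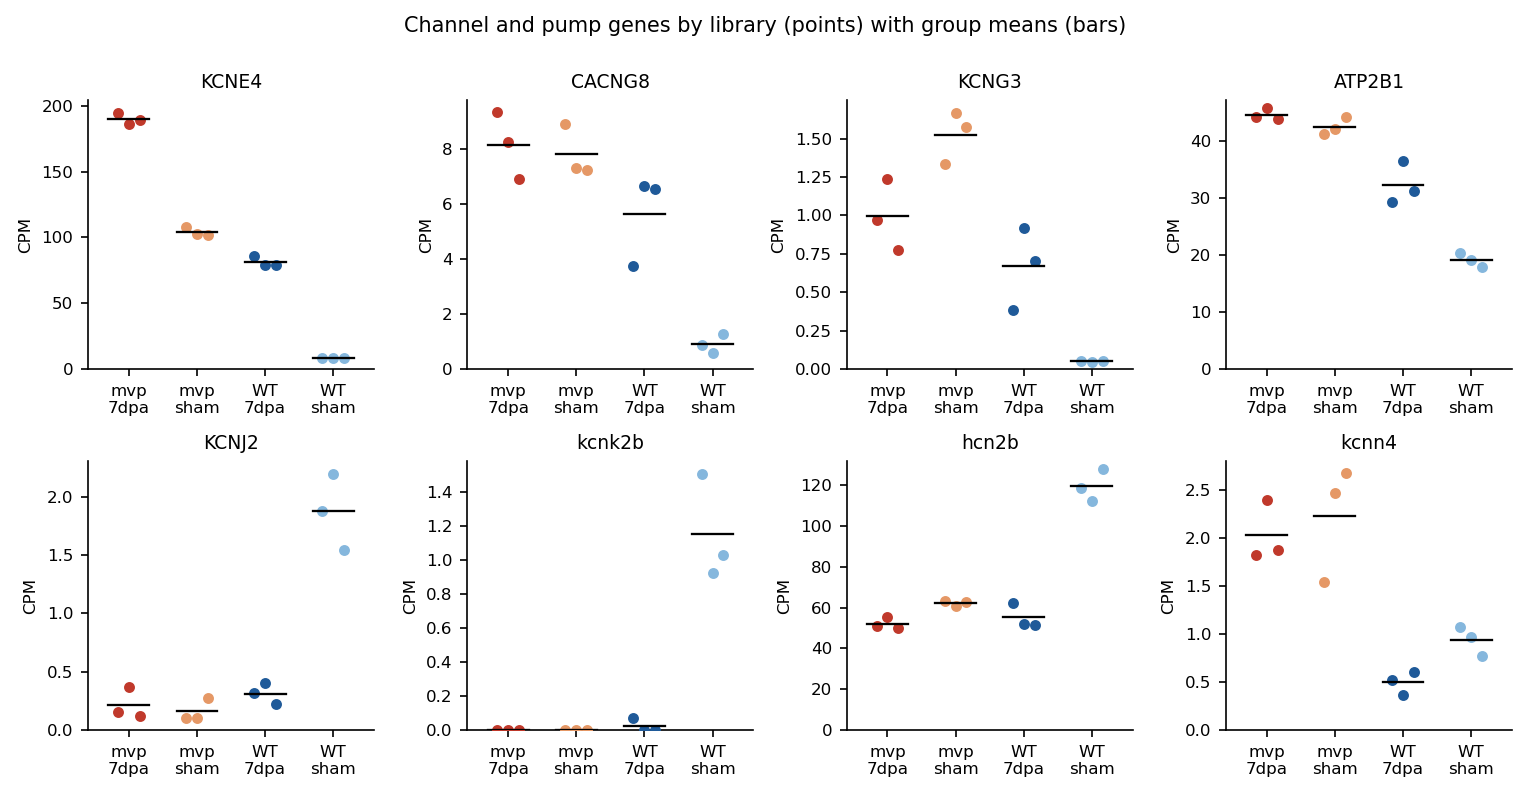
Levels of 8 channel and pump genes in CPM (vertical axes, from 0) in the 12 libraries, grouped as mvp 7dpa, mvp sham, WT 7dpa and WT sham; points are libraries and bars are group means of 3. KCNE4, CACNG8, KCNG3 and ATP2B1 were lowest in WT sham hearts, KCNJ2, kcnk2b and hcn2b were highest there, and kcnn4 was higher in all mvp than in all WT libraries.

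Of the remaining auxiliary subunits of potassium channels, the most counted was KCNMB2 (ENSDARG00000001712), a subunit of large-conductance calcium-activated channels. It had 121.7, 121.5 and 121.1 CPM in mvp 7dpa and 166, 162 and 153 CPM in mvp sham libraries, and 123.1, 113 and 114 CPM in WT 7dpa and 228, 233 and 226 CPM in WT sham libraries. It fell by -0.40 ± 0.06 in mvp and -0.98 ± 0.06 in WT hearts (adjusted p = 0.000349 and 3.27e-08), with sham hearts lower by -0.52 ± 0.06 in mvp than in WT (adjusted p = 1.27e-05, edgeR). At 7dpa its levels in the genotypes differed by 0.06 ± 0.06 (adjusted p = 0.509). kcnab1b was higher in mvp 7dpa than in WT 7dpa hearts by 1.38 ± 0.31 (adjusted p = 0.00803), at 1.59, 2.06 and 1.27 CPM in mvp 7dpa against 0.873, 0.64 and 0.382 CPM in WT 7dpa libraries. kcnab2a fell by -1.19 ± 0.28 in mvp hearts (adjusted p = 0.00657), to 0.641 CPM at 7dpa against 1.48 CPM after sham surgery on average. These kcnab genes encode beta subunits of Kv1 channels.

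Members called in both genotypes mostly moved the same way. Of 24 members called in both genotypes, 18 fell in both, 4 rose in both and 2, CASQ2 and cacna1aa, moved in opposite directions. The share with the same direction was 91.7%, beside 83.3% of all genes called in both. Across the 82 members Pearson's r of the responses was 0.38 and Spearman's rho 0.40, beside an r of 0.42 across all genes. These describe genes, which are not independent replicates, and the libraries of the responses are not shared. A further 8 members fell and 19 rose in WT hearts with no call in mvp hearts, and 4 fell and 2 rose in mvp hearts with no call in WT hearts. Among all genes 19.1% fell and 20.1% rose in WT hearts with no call in mvp hearts, and 3.66% fell and 2.48% rose in mvp hearts with no call in WT hearts.

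A test of the difference itself called 30 of 82 members (36.6%, where 35% of all genes were called), 16 with a higher and 14 with a lower log2 response in mvp hearts. Among all genes 15.2% had a higher and 19.9% a lower response. The 16 with a higher response included RYR3, CACNB4, SCN3B and hcn2b, which fell more in WT hearts. The 14 with a lower response included KCNE4, CACNG8, KCNG3, ITPR2 and ATP2B1, which rose more in WT hearts or only there passed the threshold. Of the 30 calls, 18 held whichever of the 12 libraries was left out. KCNJ2's difference of 2.97 was 3.63 without mvp sham replicate 3 and 2.35 without mvp 7dpa replicate 2. KCNJ2 met the minimum for members through WT sham, which favours a larger WT fall and so a larger difference. The difference of atp2b2, 2.23, was 3.19 without WT 7dpa replicate 1.

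**Figure D4:**
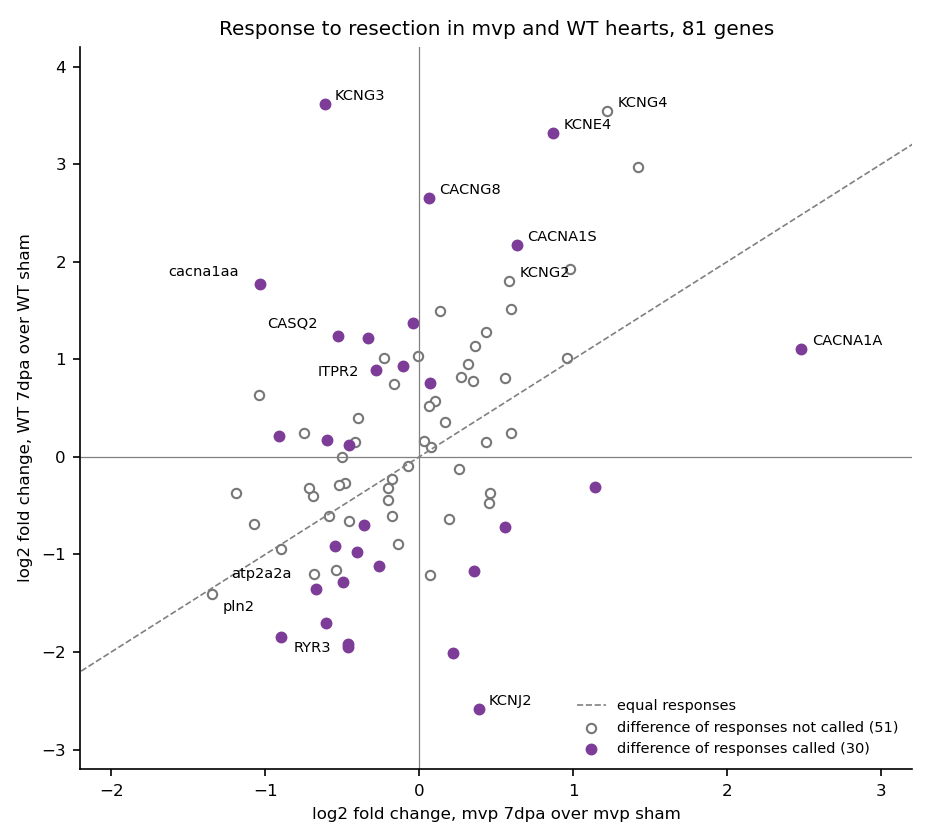
Log2 fold change at 7dpa over sham in mvp hearts (horizontal axis) and in WT hearts (vertical axis) for 81 tested members; kcnk2b, at 0 in all mvp libraries, is left out. Filled points are the 30 members whose responses differed in edgeR's test, and the dashed line marks equal responses; KCNE4 and CACNG8 lie high on the vertical axis, and CASQ2 and cacna1aa have opposite signs on the axes.

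The genotypes were also compared within each surgery. After sham surgery, 21 members were higher and 20 lower in mvp than in WT hearts, 50.0% of those tested, where 49.5% of all genes were called (25.3% higher, 24.2% lower). At 7dpa, 10 were higher and 6 lower, 19.5%, where 19.5% of all genes were called (8.94% higher, 10.6% lower). Without mvp 7dpa replicate 1 there were 10 calls at 7dpa in place of 16. Both shares were at the background. Groups did not overlap between the genotypes for 53 members after sham surgery (62.7% of all genes) and for 23 at 7dpa (34% of all genes). Of the 4 groups, WT sham lay farthest from the average of the rest for 44 of 82 members (53.7%, beside 50.3% of all genes), 24 of them below and 20 above. Since the sham comparison and the WT response share the WT sham libraries, a gene with an outlying WT sham level enters both.

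The 84 members together took 1.57% ± 0.0187 of all counts in mvp 7dpa and 1.96% ± 0.0224 in mvp sham libraries, and 1.72% ± 0.295 in WT 7dpa and 2.41% ± 0.131 in WT sham libraries (SD, n = 3 each). Without atp2a2a and pln1 the share was 0.24% ± 0.00609 in mvp 7dpa and 0.254% ± 0.0037 in mvp sham libraries, and 0.246% ± 0.0132 in WT 7dpa and 0.198% ± 0.0124 in WT sham libraries. In raw counts, WT sham libraries thus had the highest share with those 2 genes and the lowest without them. In each case an exact two-sided permutation test against WT 7dpa or mvp sham gave p = 0.1, the smallest possible. TMM factors do not enter these shares. CASQ2, lowest in WT sham libraries (387 CPM on average, against 801 to 1152 CPM in the other groups), was in the second share. How far the lowest place of WT sham rests on that gene or on the scaling was not tested.

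**Figure D5:**
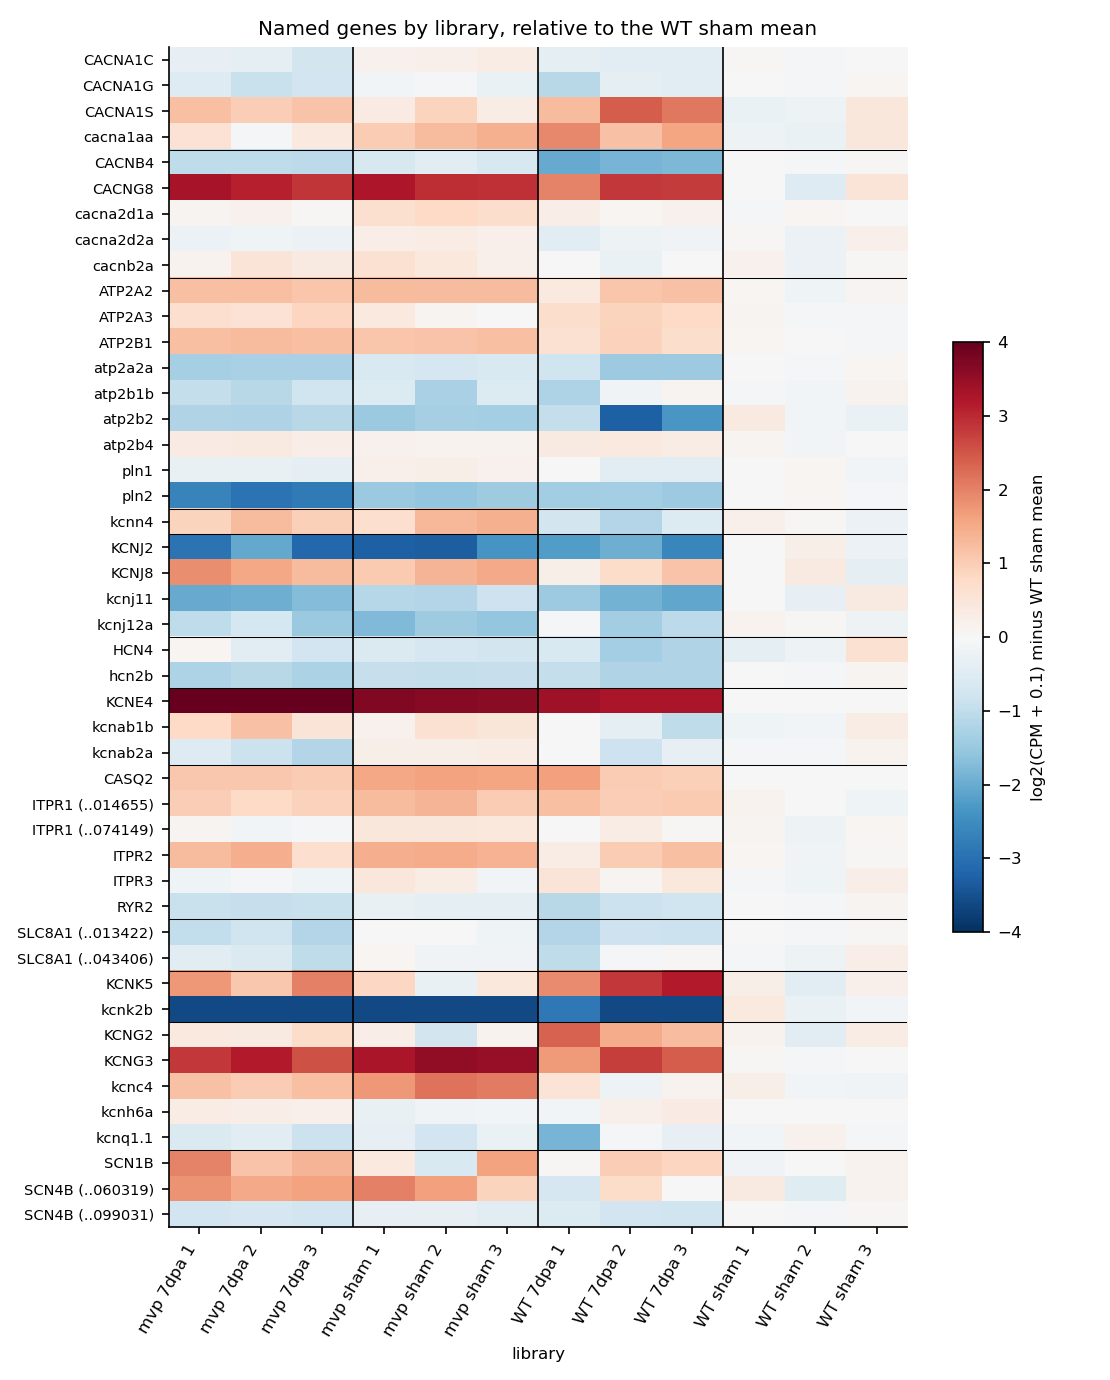
Levels of 46 members named by rule (rows, grouped by role) in the 12 libraries (columns, 3 for each of mvp 7dpa, mvp sham, WT 7dpa and WT sham), as log2(CPM + 0.1) minus the mean of the WT sham libraries, with the colour scale limited to -4 and 4. Rows such as KCNE4, CACNG8 and KCNG3 were above WT sham in the other 9 libraries and rows such as pln2, KCNJ2 and kcnk2b were below it there.

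The partners of these channels and pumps were taken from a list of 48 tested genes for junctional proteins, calmodulin and kinases, mitochondrial uptake, store-operated entry, the sodium-potassium pump, gap junctions and buffers. At 7dpa 6 rose and 10 fell in mvp hearts, and 16 rose and 16 fell in WT hearts (among all genes 12.9% rose and 13.4% fell in mvp hearts, and 31.6% rose and 27.8% fell in WT hearts), with median log2 fold changes of 0.03 and 0.08. After sham surgery 17 were higher and 11 lower in mvp than in WT hearts, and at 7dpa 5 were higher and 3 lower, where 25.3% and 24.2% of all genes were so called after sham surgery and 8.94% and 10.6% at 7dpa. Among the 12 junctional and release-unit partners, 5 fell and 1 rose at 7dpa in mvp hearts, and 5 fell and 4 rose in WT hearts. After sham surgery 7 of these 12 were higher and 2 lower in mvp than in WT hearts. The test of the difference of responses called 5 of them lower and 0 higher in mvp hearts, where 19.9% and 15.2% of all genes were so called. JPH2, which tethers the surface membrane to the sarcoplasmic reticulum, fell by -0.42 ± 0.07 in mvp hearts, to 109 CPM at 7dpa against 147 CPM after sham surgery on average, and by -0.48 ± 0.07 in WT hearts, to 103 CPM at 7dpa against 144 CPM after sham surgery (adjusted p = 0.00109 and 0.000101, edgeR). trdn, the triadin gene whose product binds calsequestrin to the release channel, fell by -0.44 ± 0.06 in mvp and -0.41 ± 0.06 in WT hearts (adjusted p = 0.000276 and 9.86e-05). The responses of JPH2 and trdn differed between the genotypes by 0.06 ± 0.11 and -0.02 ± 0.09 (adjusted p = 0.695 and 0.859), whereas that of CASQ2 differed in direction. For comparison, the median log2 fold change of the 7 cardiomyocyte markers at 7dpa was -0.34 in mvp and -0.63 in WT hearts.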

How the data were processed

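The deposited files hold whole-number counts of reads per gene, 1 file per library. The authors mapped reads to GRCz11 with HISAT2 2.1.0 and counted them with featureCounts 1.6.0 over Ensembl genes, and the release is not given in the sources used here. Strand and multi-mapping settings are not given either, so reads of near-identical or overlapping genes may be split or lost. A name table gave symbols for 29201 of 32520 genes, and the 3319 others could not match. Just outside the count minimum was kcnh7, with a third-highest count of 9, and just inside were CACNA1B, KCNK3 and KCNH4, with 10.

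Low-count genes were removed with filterByExpr, and TMM factors were computed. edgeR 4.0.16 (R 4.3.3, limma 3.58.1) then fitted a quasi-likelihood model holding a mean for each of the 4 groups, in which all 12 libraries share an estimate of the spread. Alternatives were DESeq2 1.42.0, other filters, a fold minimum, fits of the groups compared, the replicate block, no mitochondrial or most counted genes, and each library left out. Replicates of a group differed beyond counting noise. The chi-square per gene was 92.9 and 95.5 in the pairs with WT 7dpa replicate 1 and 2.2 to 10.8 in all other pairs. WT 7dpa replicates 2 and 3 gave the lowest value, 2.2. Functions were tested on simulated data.

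Members and lists were chosen with earlier results of these data known. Genes were named by rule: canonical cardiac genes, the 4 largest changes each way in each comparison with at least 1 CPM, and the 5 highest levels. All other members named, the ratios and the division at 10 CPM were added after values were seen. Some genes matching the rule are not reported here, and no sequences or coordinates were used.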

Additional observations from a re-analysis of the deposited data

Results flagged for a closer look

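For 30 members edgeR's test of the difference of responses, mvp minus WT, passed the threshold, and their log2 differences are given here. Responses were higher in mvp hearts for KCNJ2 (ENSDARG00000019418) by 2.97, atp2b2 by 2.23, HCN4 (ENSDARG00000061685) by 1.53, CACNB4 by 1.48, RYR3 by 1.45, KCNK5 (ENSDARG00000012390) by 1.45, CACNA1A by 1.37, kcnj12a by 1.27 and SCN3B by 1.1. Smaller positive differences were 0.95 for kcnj11, 0.86 for hcn2b, 0.79 for RYR1 (ENSDARG00000023797), 0.68 for kcnn1a, 0.58 for KCNMB2 (ENSDARG00000001712), 0.36 for RYR2 and 0.34 for SCN4B (ENSDARG00000099031). Responses were lower in mvp hearts for KCNG3 by -4.23, cacna1aa by -2.80, CACNG8 (ENSDARG00000070626) by -2.59, KCNE4 by -2.45, CASQ2 by -1.77, ITPR1 (ENSDARG00000014655) by -1.55, CACNA1S (ENSDARG00000029457) by -1.54 and SLC8A3 by -1.42. The rest were -1.17 for ITPR2, -1.12 for kcnc4, -1.04 for ATP2A2, -0.77 for cacna2d1a, -0.69 for ATP2B1 and -0.58 for ITPR1 (ENSDARG00000074149). The fitted value for KCNG3 rests on 1 count in each WT sham library. KCNJ2 met the minimum for members through WT sham, a choice that favours a larger WT fall, so its difference is a description. Of the 30 calls, 12 were lost when at least 1 of the 12 libraries was left out.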

How the results depend on the processing

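Among 68 of the genes named, no call changed direction in any of 21 alternatives, and 92 of 161 calls between them were lost under at least 1, 72 of them where a change of 1 log2 unit was required. With at least 10 counts in every library, 48 members were tested. Of these 48, 32 were called in the WT response, 25 in the sham comparison and 9 between genotypes at 7dpa. The median log2 fold changes of the 48 were -0.345 (mvp response), -0.284 (WT response), -0.074 (sham), -0.056 (7dpa) and 0.005 (difference of responses). This filter removes genes that are low in 1 group. A required change of 1 log2 unit or more left 6, 32, 26 and 10 members in the first 4 of these comparisons. Fits of only the groups compared called 36 of 76 members in the mvp response and 46 of 75 in the WT response. They called 48 of 70 in the sham comparison and 9 of 78 at 7dpa. Their medians were 0.008 in the WT response and 0.176 in the sham comparison. With no filter on low counts the WT median was 0.161. With 1 library left out, the number of members called was 23 to 36 in the mvp response, 45 to 53 in the WT response, 36 to 50 in the sham comparison, 10 to 24 at 7dpa, the lowest without mvp 7dpa replicate 1, and 21 to 39 in the difference of responses. The medians were then -0.201 to -0.071, -0.002 to 0.145, 0.177 to 0.272, -0.046 to 0.038 and -0.301 to -0.207 in the same order, and the WT median was lowest without WT 7dpa replicate 1. The cause of these changes was not tested. Shares of all genes under the alternatives are not given here, so these counts describe the members alone.

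Replicates with the same number did not deviate together (correlations of -0.0353 to 0.06). Such correlations cannot show how the libraries were collected or handled, and no source used here says that equal numbers pair them. With the replicate block, 28, 50, 41, 15 and 30 members were called in the mvp response, the WT response, the sham comparison, at 7dpa and in the difference of responses, and the medians were -0.147, 0.121, 0.233, 0.016 and -0.222. Sparsely counted members limit what depth can show: those near 3 counts a library are at the floor.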
